A study of Mus musculus with 7 samples.

Results

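Map1b and 8 other genes for proteins that bind or build neuronal microtubules were described across the Argonaute crosslink positions of neonatal mouse retina. The 9 genes were chosen by name, for function, with their crosslink counts already known, Map1b because it had many positions; those counts are therefore given as a description, without a test. Positions were assigned on the same strand with the GENCODE M21 annotation of the mm10 genome. The genes held 52 of the 14054 deposited positions, 34 of them in Map1b and 18 in Map2, Map4, Mapt, Dcx, Stmn2 and Tubb3. Map1a and Stmn1 had none. The series has 5 libraries made with anti-Argonaute antibody 2A8 and 2 IgG control libraries, all from CD-1 retinas taken at postnatal day 0 and grown as explants for 24 h with 0.1 mM 4-thiouridine and 20% horse serum. In this assay, PAR-CLIP, ultraviolet light of 365 nm links the 4-thiouridine in RNA to a bound protein, and each library came from 6 pooled retinas.

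The score of a position is the number of Argonaute libraries that share it, from 2 to 5, and the table pools those libraries. Single libraries and the IgG libraries were not analysed here, the read depth is unknown, and no difference could be tested against the spread between libraries. Positions are listed when reads in at least 2 libraries reveal them, which favours abundant mRNAs, and a gene with no position is not shown to be unbound. Shares carry exact 95% Clopper-Pearson intervals, which cover counting error only; positions of 1 mRNA are not independent replicates.

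Neurons are built around microtubules, polymers of alpha- and beta-tubulin. MAP1B and doublecortin (Dcx) are the microtubule-binding proteins of young, growing neurons, MAP2 is enriched in dendrites and tau (Mapt) in axons, MAP4 is the widely expressed relative of MAP2 and tau, MAP1A becomes prominent as neurons mature, and the stathmins (Stmn1, Stmn2) bind free tubulin and promote disassembly. Tubb3 is the beta-tubulin used as a marker of neurons. Argonaute is directed to mRNAs by the microRNA it carries, chiefly through the seed, bases 2 to 8 of the microRNA, and the bound mRNA is translated less or degraded sooner. In mouse neurons, miR-9 and miR-181d have been reported to act on Map1b during axon growth.

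The microRNAs whose seeds matched the sequences next to the most shared or best matched positions are shown first, since the results turn on them. They are printed 5′ to 3′ from RefSeq (GRCm38.p6), with the seed in capitals.
miR-9-5p: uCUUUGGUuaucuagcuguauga
miR-181a-5p: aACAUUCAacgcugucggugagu
miR-25-3p: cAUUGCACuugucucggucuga
miR-26a-5p: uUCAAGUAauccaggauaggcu
miR-27a-3p: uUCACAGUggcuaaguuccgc
miR-130a-3p: cAGUGCAAuguuaaaagggcau
miR-135a-5p: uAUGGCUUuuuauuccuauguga

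The 6 positions followed by a 7mer or 8mer match to a listed microRNA are printed next, as 30 nt of mRNA with the crosslinked T as base 13 and the match in capitals. An 8mer pairs with the whole seed and has an A after it, and a 7mer here is a match to the whole seed without that A. All coordinates are mm10.
Map1b, chr13:99424882-99424911, minus strand, 3′ UTR, miR-9-5p 7mer: aactgaagcaaatACCAAAGcaggtgggag
Map1b, chr13:99424830-99424859, minus strand, 3′ UTR, miR-181a-5p 8mer: ttaggaagtgactTGAATGTAcaaagacac
Map1b, chr13:99421553-99421582, minus strand, 3′ UTR, miR-25-3p 8mer: ttatgatatttgtGTGCAATAtcccctctt
Map2, chr1:66439811-66439840, plus strand, 3′ UTR, miR-26a-5p 8mer: gatacttcctcataTACTTGAAtatgatac
Map4, chr9:110034797-110034826, plus strand, coding sequence, miR-9-5p 8mer: ggatgtgttacttACCAAAGAaacagaact
Dcx, chrX:143857825-143857854, minus strand, 3′ UTR, miR-181a-5p 7mer: ccttacagctcaTGAATGTttaggtcttta

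The other 3 positions found in 4 or 5 libraries had only shorter matches or matches that lack base 8 of the microRNA, which are in capitals here.
Map1b, chr13:99424808-99424837, minus strand, 3′ UTR, miR-130a-3p 6mer: aaagacacctgaTGCACTtattttttaatg
Map1b, chr13:99423535-99423564, minus strand, 3′ UTR, miR-27a-3p 7mer-A1: cagtctacttaatgCTGTGAAtcacatttt
Dcx, chrX:143860585-143860614, minus strand, 3′ UTR, miR-135a-5p 6mer: ttttggaaaggatAGCCATtagcatgactg

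Map1b (ENSMUSG00000052727.6, chromosome 13, 99421446 to 99516540, minus strand) held 34 positions, against a median of 2 over the 4949 genes with a position. It ranked 4 by all positions, 3 by positions in the 3′ UTR, a place it shared with 1 other gene, and 1 by positions in coding sequence. Of its positions, 20 lay in the 3′ UTR, 13 in coding sequence and 1 in an intron. No other gene in the table had as many coding positions; 2610008E11Rik and Kmt2e came next with 12 each. These 2 genes and their counts were taken up only after the values were seen.

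The counts were also set against length. In the principal transcript ENSMUST00000064762.5, Map1b has 7395 nt of coding sequence and 4360 nt of 3′ UTR, so it had 1.76 positions per kb of coding sequence and 4.59 per kb of 3′ UTR. Over 4747 crosslinked coding genes the densities were 0.280 and 0.707 per kb. Here positions were counted on any coding model, but lengths were taken from 1 principal transcript a gene. Positions outside that transcript, such as those in the Dcx 3′ UTR, thus add to the count but add no length. The exonic positions of Map1b all lie on its principal transcript, so its densities and those over all genes are not strictly alike. By these densities Map1b was 6.28 times denser in coding sequence and 6.49 times denser in 3′ UTR. The ratio of 3′ UTR to coding density was 2.61 in Map1b and 2.53 over all these genes. Because crosslinks fall on T, the same was counted per 1000 T: 9.18 in Map1b coding sequence, 15.4 in its 3′ UTR, and 1.27 and 2.30 over all genes. The ratio per T was 1.67 in Map1b and 1.81 over all genes. By this count, coding sequence and 3′ UTR stood in nearly the same proportion in Map1b as elsewhere.

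**Figure D1:**
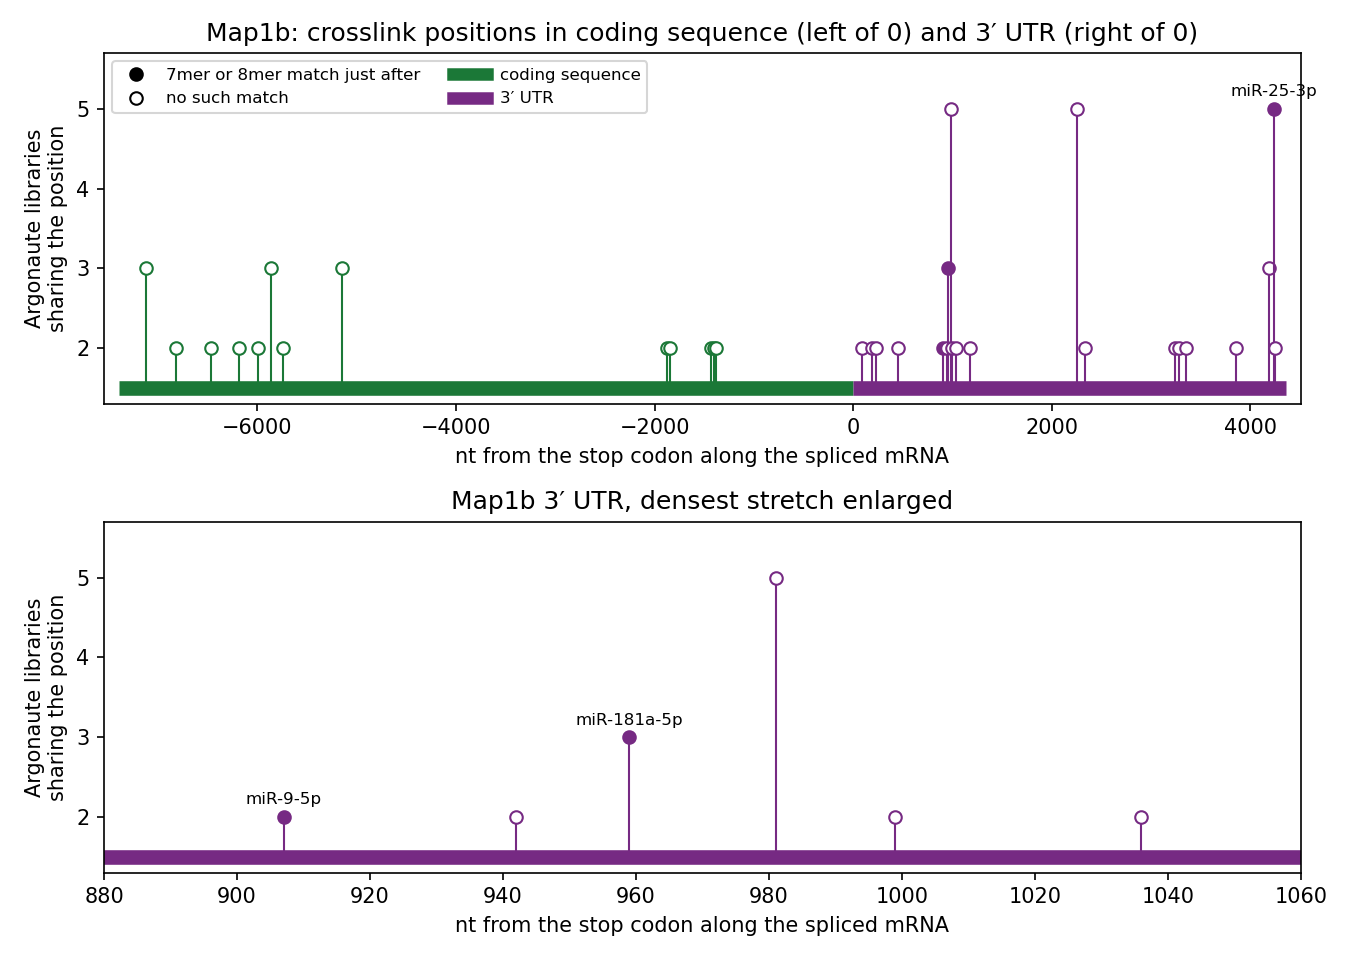
Crosslink positions along the spliced Map1b mRNA, by distance from the stop codon in nt (x) and number of Argonaute libraries sharing each (y), with the densest 3′ UTR stretch enlarged below; filled points have a 7mer or 8mer seed match just after. The 3 positions found in 5 libraries all lie in the 3′ UTR, and coding positions reach 3 libraries.

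In the Map1b 3′ UTR the positions were not evenly spread. A run of 6 positions, each within 50 nt of the next, covered 130 nt from 907 to 1036 nt after the stop codon (chr13:99424770-99424899). It opened with the miR-9 7mer, whose position at 99424899 was found in 2 libraries. The position at 99424847, with the miR-181 8mer, was found in 3 libraries. The position at 99424825 was found in all 5. It had a 6mer of miR-130a-3p that began at the crosslinked T, offset 6mers of miR-148a-3p and miR-17-5p (matches to bases 3 to 8), and, 14 nt after it, a 7mer of miR-23a-3p. That miR-23a 7mer also covered the position at 99424807, found in 2 libraries. The positions at 99424864 and 99424770 were in 2 libraries each and had no match of a searched microRNA just after. The listed miR-124-3p was not searched, so a match to it would not be seen here. Among the microRNAs searched, a 7mer or 8mer just after was thus present at 99424899 and 99424847, and only shorter matches just after at 99424825. The miR-23a 7mer began 4 nt before the position at 99424807 and does not count as just after it. Over all exonic crosslinks, 26.2% had a 7mer or 8mer just after and 45.2% a match of any type. Matches within this run were not tested.

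The other Map1b positions found in 5 libraries were at 99423552, 2254 nt after the stop codon, and at 99421570, 4236 nt after it. The first was followed by a 7mer-A1 match to miR-27a-3p, in which bases 2 to 7 pair and an A follows. It also had an offset 6mer of miR-103-3p that began 1 nt before the crosslinked T. The second was followed by the miR-25 8mer, which a 6mer of miR-137-3p overlapped. This position lay 124 nt from the annotated end of the transcript, in a run of 3 positions over 62 nt. Its neighbours at 99421614 and 99421553 were found in 3 and 2 libraries. Offset 6mers were found at 2 further 3′ UTR positions, each in 2 libraries: that of miR-130a-3p at 99424632 and that of miR-9-3p at 99423474. Only 4 of the 20 positions in this 3′ UTR lay within 500 nt of the stop codon, and the longest stretch between neighbouring positions was 1080 nt. Of the 20, 5 were in 3 or more libraries (25%, 8.66 to 49.1), against 32.9% of all 3′ UTR positions.

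In Map1b coding sequence, 12 of the 13 positions lay in exon 5 of 7, an exon of 6490 nt, and 1 lay in exon 2. They formed an early and a late group. The 8 early positions ran to codon 750 of 2464, the 5 late positions ran from codon 1840 to codon 2004, and the 1089 codons between held none. The 3 coding positions found in 3 libraries, at 99508126 (codon 90), 99434685 (codon 509) and 99433962 (codon 750), were all in the early group, and the 5 late positions were each in 2 libraries. The share in 3 or more libraries was 23.1% (3 of 13, 5.04 to 53.8), against 21.7% of all coding positions. None of the 13 had a 7mer or 8mer match just after, beside 26.2% of all exonic crosslinks. The share among coding crosslinks alone was not counted. The position at 99434556 had an offset 6mer of miR-182-5p, and that at 99433962 had a miR-135a-5p 7mer that ended 2 nt before it. The single intronic position, at 99452855, was in 2 libraries.

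The 34 positions of Map1b included both of the miR-216 sites that the deposited table gives for the 9 genes, out of 394 distinct sites. In all, 6.85% of crosslinked genes had such a site. They are printed because the series is about miR-216b; the deposited match is in capitals and the nearest crosslinked T lies 13 nt before it. Each nearest position was in 2 libraries.
miR-216a-5p: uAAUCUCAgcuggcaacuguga
miR-216b-5p: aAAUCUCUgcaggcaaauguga
Map1b 3′ UTR, chr13:99425332-99425337, minus strand, named for miR-216a: aggtagagagttctgaTGAGATgcc
Map1b coding sequence, exon 5, chr13:99430673-99430679, minus strand, named for miR-216a/b: tcatctggccttgaatAGAGATTtga

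The 3′ UTR site was an offset 6mer of miR-216a, since the base after it was G. The coding site was a full 7mer of miR-216b and, without its first base, a 6mer of miR-216a; the base after it was T, so it was no 8mer. Both began further from the crosslinked base than the matches counted just after it.

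Map2 (chromosome 1, 66175273 to 66442583, plus strand) had 4 positions. The 3′ UTR position at 66439823 was found in all 5 libraries and had a miR-26a 8mer that began 2 nt after it. The 3′ UTR position at 66439208 was found in 3 libraries and had a 6mer of miR-9-3p, the other strand of the miR-9 precursor. Both lie beyond the end of the principal transcript, in the last exon of ENSMUST00000114015.7, whose 3′ UTR is 3576 nt long. A coding position at 66413032, in 2 libraries, was followed by a miR-9-5p 7mer-A1. It lies in an exon of 3741 nt, and 3 of the 9 coding models that span it include it. The intronic position at 66394417 was in 2 libraries.

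Map4 (chromosome 9, 109931460 to 110083955, plus strand) had 5 positions, of which 4 were in 3 or more libraries. The position with the miR-9 8mer, at 110034809, was found in 4 libraries and lay in coding sequence, at codon 367 of 1125 in exon 7 of 19 of ENSMUST00000035055.14. That is not the principal model, and only 2 of the 13 coding models of Map4 include the position. The coding positions at 110036766 and 110036785, in exon 8, were found in 3 libraries each, and the first had an offset 6mer of let-7a-5p 3 nt after it. Each of these positions is in 3 of the 13 coding models. The intronic position at 109994132 was also in 3 libraries. The 3′ UTR position at 110081794, 52 nt after the stop codon, was in 2 libraries and had no match of a searched microRNA.

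Dcx (chromosome X, 143855842 to 143933311, minus strand) had 4 positions, all in the 7709 nt 3′ UTR of ENSMUST00000033642.9, from 2851 to 5709 nt after the stop codon. The position at 143860602 was found in 4 libraries and had the 6mer of miR-135a-5p. The position at 143857842, in 2 libraries, began a miR-181a 7mer with the crosslinked T itself. The position at 143859704, in 2 libraries, had an offset 6mer of miR-9-5p that began 1 nt after it. The fourth, at 143860700 in 2 libraries, had no match of a searched microRNA just after, and a miR-204-5p 8mer began 13 nt before it. Only this 1 of the 4 coding models of Dcx holds these positions; the principal model has a 3′ UTR of 78 nt.

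Mapt (chromosome 11, 104231390 to 104332090, plus strand) had 3 positions, each in 2 libraries. Those at 104310453 and 104327993 were in coding sequence, at codons 236 and 367 of 430, and the second had a miR-125b-5p 7mer-A1. The third, at 104329534, was in the long 3′ UTR of ENSMUST00000106992.9. Stmn2, which encodes the neuronal stathmin SCG10, had 1 position, in an intron at 8519790 on chromosome 3, in 2 libraries. Tubb3 had 1 position, at 123420963 on chromosome 8, in 2 libraries. It is in the 3′ UTR of a short model, ENSMUST00000212743.1, but in coding sequence when that class takes precedence, and it also lies in the overlapping gene Gm20388. Beta-tubulin genes share near-identical coding stretches, so its source among them is uncertain. Stmn1 has 450 nt of coding sequence and 440 nt of 3′ UTR, and Map1a 9045 and 2745 nt, so Map1a, with a coding sequence longer than that of Map1b, is listed with no position. In all, 7 of the 9 genes had a position, against 21.6% of 21943 protein-coding genes, a difference that the choice of genes fixes.

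**Figure D2:**
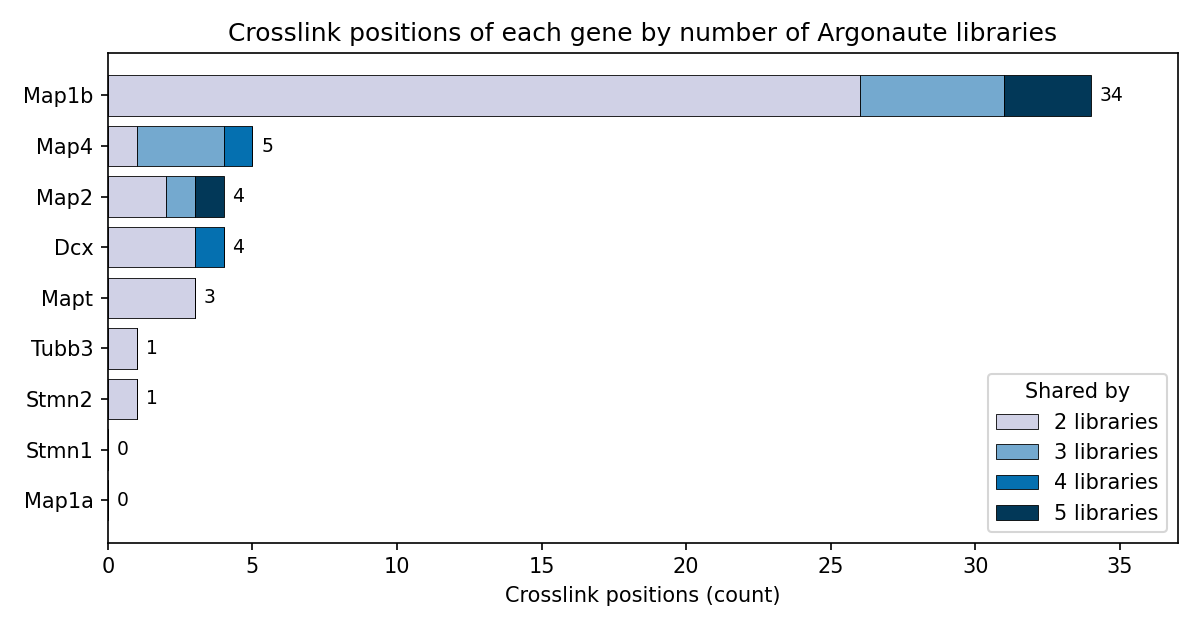
Crosslink positions (count, x) of each of the 9 genes (rows), coloured by the number of Argonaute libraries that share them. Map1b holds 34 of the 52, and positions in 4 or 5 libraries occur in Map1b, Map2, Map4 and Dcx.

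Over the 9 genes, 29 of 52 positions were in 3′ UTRs (55.8%, 41.3 to 69.5), against 52.1% of all crosslinks. Coding sequence held 19 (36.5%, 23.6 to 51.0), against 20.9%, and the background lies below that interval. Introns held 4 (7.69%, 2.14 to 18.5), against 17.9%. The coding share was 38.2% (13 of 34, 22.2 to 56.4) in Map1b and 33.3% (6 of 18, 13.3 to 59.0) in the others, an interval that holds the 20.9%. Shares by location take no account of region length. Set against length, the ratio of 3′ UTR to coding density was 2.61 in Map1b, near the 2.53 over all crosslinked coding genes. In 3 or more libraries were 15 of 52 (28.8%, 17.1 to 43.1), near the 25.6% of all crosslinks, and in all 5 were 4 (7.69%, 2.14 to 18.5), against 3.47%. These shares were not tested, since the genes were picked with results known and Map1b gives most positions.

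**Figure D3:**
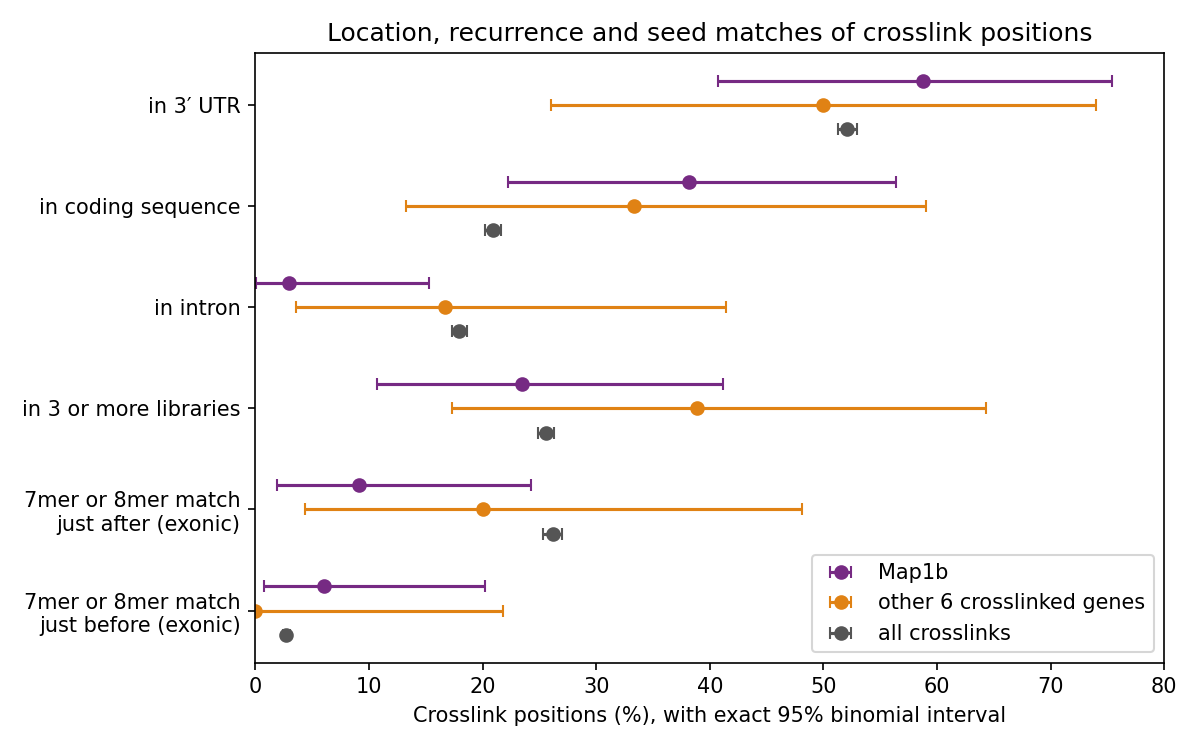
Share of crosslink positions (%, x) by location, number of libraries and seed match, for Map1b (purple), the 6 other crosslinked genes (orange) and all crosslinks (grey), with exact 95% intervals. Coding sequence stands at 38.2% in Map1b and 20.9% over all crosslinks, and 7mer or 8mer matches just after at 9.09% and 26.2%. The shares with a seed match are not split by location. Shares by location take no account of region length.

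Seed matches just after the crosslink were counted for the 39 listed microRNAs found in the RefSeq table. Matches of miR-124-3p, listed but absent there, are in none of these counts, for these genes or for all crosslinks. A match counted when the base facing microRNA base 8 lay from 1 nt before to 3 nt after the crosslinked T. Sequence was available for 48 of the 52 positions. A 7mer or 8mer match was present at 6 of them (12.5%, 4.73 to 25.2), against 26.2% of 10989 exonic crosslinks, a share just above that interval; with 8mers alone, with starts from 0 to 2 nt, with shorter matches added or without Map1b, the share of all crosslinks lay inside the interval. In Map1b the count was 3 of 33 (9.09%, 1.92 to 24.3) and in the others 3 of 15 (20.0%, 4.33 to 48.1). With every match type down to 6mers and offset 6mers, it was 17 of 48 (35.4%, 22.2 to 50.5), against 45.2%. In Map1b alone this count was 8 of 33 (24.2%, 11.1 to 42.3), an interval that lies below the 45.2%. In the others it was 9 of 15 (60%, 32.3 to 83.7), an interval that holds the 45.2%. Matches that ended in the mirrored place just before the crosslink were present at 2 of 48 (4.17%, 0.509 to 14.3), against 2.73%. These shares were not split by location, and coding sequence held 36.5% of the 9 genes' positions beside 20.9% of all crosslinks.

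The 7mer and 8mer matches just after were also counted by number of libraries. Of positions in 4 or 5 libraries, 3 of 6 had a 7mer or 8mer, beside 44.6% of all such crosslinks. In exactly 3 libraries 1 of 8 had one, beside 35.9%. In 2 libraries 2 of 34 had one (5.88%, 0.720 to 19.7), beside 20.6%. Only for positions in 2 libraries does the interval leave out the share of all crosslinks; the groups in 3, 4 or 5 libraries are small, and no difference was tested. Most positions in 2 libraries came from Map1b, which had 26 of them, 1 in an intron.

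Of the 6 matches, 4 began 1 nt after the crosslinked T, which is also the most frequent start over all exonic crosslinks, at 18.3%. The miR-9 family had 2 of the 6 (Map1b and Map4; 4.17%, 0.509 to 14.3), against 1.63% of all exonic crosslinks, and the miR-181 family had 2 (Map1b and Dcx; 4.17%, 0.509 to 14.3), against 2.53%. Both shares of all crosslinks lie inside these intervals. With shorter matches, miR-9-5p was also beside positions of Map2 and Dcx, which makes 4 positions in 4 genes (8.33% of 48, 2.32 to 20.0), near the 6.72% of all exonic crosslinks with such a match. The remaining 7mers or 8mers belonged to miR-25 and miR-26.

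**Figure D4:**
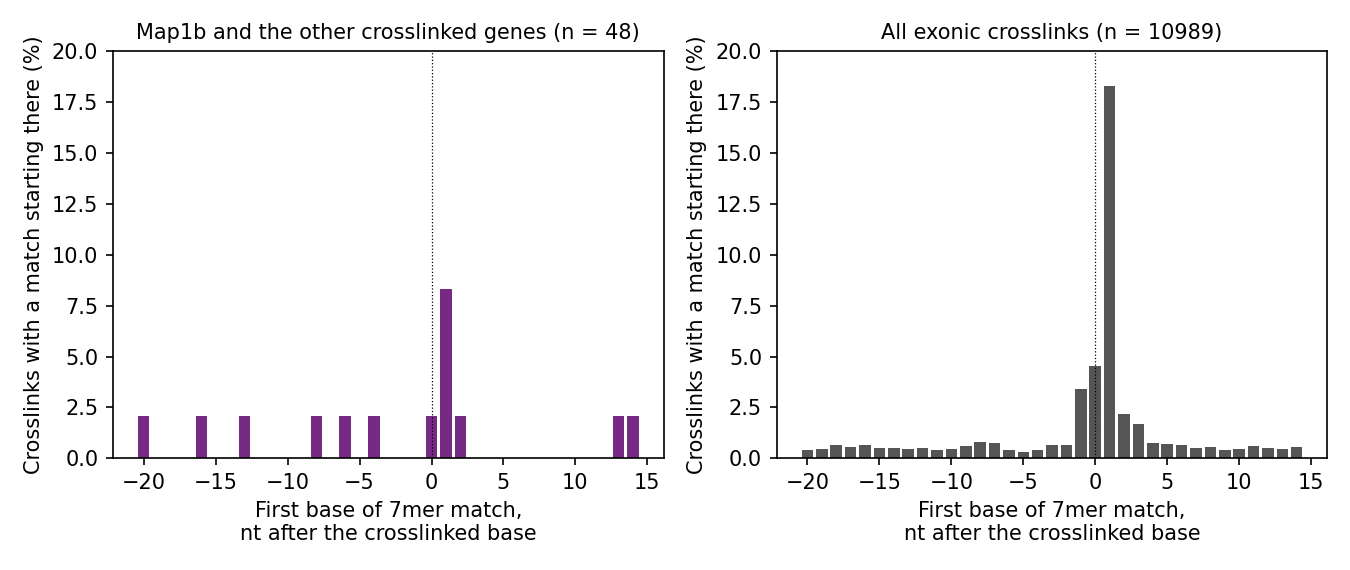
Share of exonic crosslinks (%, y) with a 7mer or 8mer match of a listed microRNA starting at each distance from the crosslinked base (nt, x), for the 48 positions of the 7 crosslinked genes (left) and for all 10989 exonic crosslinks (right). Both have their highest bar 1 nt after the crosslink, at 8.33% on the left and 18.3% on the right.

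Other genes of the microtubule system were taken from a list of 73 tubulins, motor proteins, tip-binding, severing and modifying factors, chosen with earlier results of these data known. Of these, 42 (57.5%) had at least 1 position, 178 in all, and 31 had none, beside the 21.6% of protein-coding genes given above, a share over all annotated genes, whatever their expression. The tubulins had 5 of 12 genes with a position and the kinesins 8 of 9. Of the 178 positions, 56.2% were in 3′ UTRs and 32.6% in coding sequence, beside 55.8% and 36.5% in the 9 genes. In 3 or more libraries were 23.6%, and 33 of 162 exonic positions (20.4%) had a 7mer or 8mer just after.

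The list was led by Kif1b, a kinesin that carries synaptic vesicle precursors and mitochondria, with 19 positions, of which 13 were in the 3′ UTR and 5 in coding sequence. Gsk3b, a kinase that phosphorylates MAP1B and tau, had 14, of which 8 were in the 3′ UTR. Kif5c, a kinesin heavy chain of neurons, had 10, of which 7 were in the 3′ UTR, and Kif5b had 6, all there. Kif21a, a kinesin that limits microtubule growth, had 9, with 4 in the 3′ UTR and 4 in coding sequence. Pafah1b1, the dynein regulator LIS1, had 8, of which 4 were in 3 or more libraries. In some genes coding sequence held most or all positions: 9 of 9 in Dync1h1, the dynein heavy chain, 7 of 7 in Dync1i2, a dynein intermediate chain, and 7 of 8 in Ckap5, a microtubule polymerase. Dclk1, a kinase related to doublecortin, had 5, as did Spast and Tubb4a. Kif1b, Kif5c, Dync1h1 and Kif21a had 1 miR-216 site each, the only ones in the list.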

How the data were processed

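The deposited tables give crosslink positions and miR-216 matches on mm10. Per the file headers, the score of a position is the number of samples that contain it; the miR-216 table has no header, and a crosslink with an equal score lay within 15 nt of the start of each of its 404 entries, so its score was read likewise. CASAVA 1.8.2, STAR and bedtools were used, per the submitters' processing notes; the peak or crosslink caller is not given in the sources used. Same-strand annotation used GENCODE M21: a 3′ UTR took precedence over coding sequence, then came the 5′ UTR, exons of noncoding models and introns, and UTRs and coding sequence were read from protein-coding models. Sequence came from spliced transcripts; all 10989 exonic positions with a base fell on T. Of 45 microRNAs listed, 39 had an entry in the RefSeq table and were searched; miR-124-3p, miR-1a-3p, miR-133a-3p, miR-122-5p, miR-143-3p and miR-145a-5p were not. The search was checked only by planting whole-seed matches 1 to 3 nt after the crosslink in shuffled sequences. Shorter matches and other starts were not checked in this way. The genes and lists were chosen with earlier results of these data known. All 9 genes are named, and of the microtubule list the 10 with the most positions (ties by symbol, and those tied at 5) and those with a miR-216 site; positions in 3 or more libraries or with a match are given singly. Python 3.11.15 and scipy 1.17.1 were used.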

Additional observations from a re-analysis of the deposited data

How the results depend on the processing

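The share of the 9 genes' positions in 3′ UTRs, their share in 3 or more libraries and the Map1b 3′ UTR share stayed within their intervals under every alternative run for them (class order, merging within 10 nt, 3 or more libraries, without Map1b). The share with a seed match just after, 12.5%, was 29.2% (17 to 44.1) with 20 nt searched on either side, 28.6% (8.39 to 58.1) in 3 or more libraries, 25.0% (13.6 to 39.6) with 7mer-A1 and 6mer matches, 8.33% (2.32 to 20.0) with 8mers alone, 12.5% (4.73 to 25.2) with starts from 0 to 2 nt, 20.0% (4.33 to 48.1) without Map1b and, chosen after the data were seen, 35.4% (22.2 to 50.5) with offset 6mers. All exonic crosslinks had 37.2%, 39.3%, 39.0%, 14.7%, 23.2%, 26.2% and 45.2% in the same order, each inside the interval of these genes. Among these settings, only the main value and its repeat with positions merged left the share of all crosslinks outside. Taken alone, Map1b also left it outside, at 9.09% (1.92 to 24.3) beside 26.2% and, with offset 6mers, 24.2% (11.1 to 42.3) beside 45.2%. So did positions in 2 libraries, at 5.88% (0.720 to 19.7) beside 20.6%. No 2 positions of these genes lay within 10 nt, so merging changed nothing. No paired analysis was possible because both tables pool the Argonaute libraries, and for that reason leaving out single libraries was not run. With 52 positions, 34 of them from 1 gene, the intervals are wide.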
